A study of Mus musculus with 14 samples.

Results

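Complex I subunits are the nuclear-encoded parts of the respiratory NADH:ubiquinone oxidoreductase, and 37 of their genes were followed here in mouse oocytes. They were taken by symbol (Nduf followed by a, ab, b, c, s or v and a number, without the Ndufaf assembly factors), had to be protein-coding and in both deposited tables, and needed a level of at least 1 TPM (a transcript count scaled to gene length and to a fixed total per library) in at least 2 libraries of a table. Of 35389 gene identifiers in the first table and 35341 symbols in the second, 12736 and 12859 passed that level. The 37 genes divide into 6 core subunits (Ndufv1, Ndufv2, Ndufs1, Ndufs3, Ndufs7 and Ndufs8) and 31 genes named as accessory. Among the latter, Ndufa4 is now known as a subunit of complex IV and Ndufa4l2 is its paralog, so 29 are accessory subunits proper. All but Ndufa4l2 passed the level in all 14 libraries, and Ndufa4l2 passed in 3 of 8 and 4 of 6. Ndufb1-ps was outside the rule because GENCODE M21 annotates it as a noncoding transcript, whereas RefSeq lists protein-coding Ndufb1 there. Genes of the mitochondrial chromosome, which encode further core subunits, were not analysed here.

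Polyadenylated RNA was sequenced from oocytes that overexpressed Rnaseh1, whose enzyme digests the RNA strand of RNA:DNA hybrids, or the fluorescent protein mCherry as the control. In 8 libraries each protein was expressed in oocytes whose nucleolus is not surrounded by condensed chromatin (non-surrounded nucleolus, NSN), the earlier and transcriptionally active state, and in oocytes with a surrounded nucleolus (SN), the later and mostly silent state. A further 6 libraries form a rescue set with mCherry alone, Rnaseh1 alone, or Rnaseh1 together with Supt6, a histone chaperone of elongating RNA polymerase II. The 7 groups have 2 libraries each. The labels give no stage for the rescue set, and no strain, age or number of oocytes for any group. Nor do they state if replicate libraries are separate animals, pools or preparations, so the p-values reflect only how far these libraries spread.

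Complex I takes electrons from NADH, passes them along iron-sulfur clusters to ubiquinone and pumps protons across the inner mitochondrial membrane. Its peripheral arm holds the N module, where NADH is oxidised, and the Q module, where ubiquinone is reduced; its membrane arm holds the proton pumps. Core subunits carry the catalysis and are shared with bacteria, and accessory subunits surround them and serve assembly and stability. Oocytes store transcripts and mitochondria for the embryo, and their energy comes largely from mitochondrial oxidation of pyruvate.

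Promoter sequences were matched for 33 of the 37 genes in RefSeq (GRCm38.p6), each 300 bases long and running from 250 bases before to 50 bases after the transcript start. Ndufa2, Ndufa4l2, Ndufb9 and Ndufs1 had no entry. The promoters shown are those of the accessory gene and the core gene with the largest opposite responses to Rnaseh1 in the rescue set, Ndufa12 (chr10:94198785-94199084, plus strand) and Ndufv1 (chr19:4012706-4013005, minus strand), and of a second pair with opposite responses, Ndufc1 (chr3:51408906-51409205, minus strand) and Ndufs7 (chr10:80249199-80249498, plus strand). They are written 5′ to 3′ in lower case, and capitals mark the core motif of the factor YY1, GATGGCG.

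Ndufa12: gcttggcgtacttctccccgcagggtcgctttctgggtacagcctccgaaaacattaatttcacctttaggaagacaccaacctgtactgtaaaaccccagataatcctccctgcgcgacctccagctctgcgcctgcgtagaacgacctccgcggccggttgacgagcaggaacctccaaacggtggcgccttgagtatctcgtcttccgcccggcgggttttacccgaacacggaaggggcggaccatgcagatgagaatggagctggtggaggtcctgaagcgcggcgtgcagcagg
Ndufv1: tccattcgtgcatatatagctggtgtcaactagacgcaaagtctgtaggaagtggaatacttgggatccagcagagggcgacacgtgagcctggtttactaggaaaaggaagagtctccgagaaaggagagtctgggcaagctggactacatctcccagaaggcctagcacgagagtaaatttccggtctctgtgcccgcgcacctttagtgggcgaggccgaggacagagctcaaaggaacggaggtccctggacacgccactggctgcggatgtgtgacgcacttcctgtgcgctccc
Ndufc1: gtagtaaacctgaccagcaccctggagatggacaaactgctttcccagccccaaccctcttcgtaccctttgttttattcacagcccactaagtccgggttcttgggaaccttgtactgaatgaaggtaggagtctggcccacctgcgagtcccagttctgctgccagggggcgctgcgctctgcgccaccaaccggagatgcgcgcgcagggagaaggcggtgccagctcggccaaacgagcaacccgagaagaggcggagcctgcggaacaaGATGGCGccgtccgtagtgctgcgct
Ndufs7: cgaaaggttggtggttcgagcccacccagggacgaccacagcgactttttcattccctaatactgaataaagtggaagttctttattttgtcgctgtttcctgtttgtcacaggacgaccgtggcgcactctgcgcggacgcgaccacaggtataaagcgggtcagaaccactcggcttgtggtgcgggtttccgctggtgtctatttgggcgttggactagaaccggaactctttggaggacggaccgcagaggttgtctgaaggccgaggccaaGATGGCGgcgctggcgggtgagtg

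The YY1 motif began at base 25 of the Ndufc1 transcript and at base 27 of the Ndufs7 transcript, although Ndufc1 was higher and Ndufs7 lower with Rnaseh1. The other 2 promoters shown held none of the 3 motifs searched. Over both strands, GATGGCG was in 6 of 33 complex I promoters (Ndufa7, Ndufa9, Ndufc1, Ndufs4, Ndufs6 and Ndufs7) and in the promoters of 4.04% of all genes. The NRF1 core GCATGCG was in 3 of 33 (Ndufa6, Ndufa8 and Ndufa11) and in 4.01% of all genes. The ETS-family core CCGGAAG was in 4 of 33 (Ndufb6, Ndufb7, Ndufs3 and Ndufs8) and in 9.93% of all genes. Of the genes that rose with Rnaseh1 in the rescue set and had a promoter entry, 5 of 28 held the YY1 motif, and of those that fell, 1 of 4 did. A match of letters is a description and does not show binding.

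Rnaseh1 was 107.7 to 137 TPM in the NSN control libraries and 745 and 229 TPM in the NSN Rnaseh1 libraries, 81.0 to 131 against 1361 and 1083 TPM in SN, and 114 to 125, 625 to 1243 and 2017 to 2270.5 TPM in the 3 rescue groups. Supt6 was 2.55 to 3.28 TPM in the rescue libraries without it and 20.97 and 28.2 TPM with it. The 12 oocyte markers checked were at 1 TPM or more in every library, and of 12 granulosa and cumulus cell markers Amh, Amhr2, Foxl2 and Wt1 were at 0 in all groups; the summed level of those 12 was 23.8 to 55.3 TPM, mostly Cyp19a1. NSN Rnaseh1 replicate 2 stood apart from its replicate and, to a lesser degree, so did SN mCherry replicate 2, so results of the NSN and SN set are given with the values of single libraries. In bulk RNA, fewer cells of a type and less RNA per cell cannot be told apart, and TPM gives levels relative to the rest of a library, with no read depth.

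In control oocytes, complex I transcripts were abundant and the median accessory gene was moderately above the median core gene. The median member stood above 91.5% to 96.2% of the genes that passed the level in a library, over all 14 libraries. In the rescue mCherry libraries the median core gene was at 130.5 and 133 TPM and the median of the 29 accessory subunits at 179 and 170.2 TPM, a ratio of 1.37 and 1.28. In NSN mCherry the ratio was 1.37 and 1.79, and in SN mCherry 2.07 and 1.28. TPM is scaled by transcript length, but remaining effects of length and GC content on the level of a gene were not tested. By TPM, Ndufs7 (211 ± 3.72 TPM, mean ± SD, n = 2) and Ndufv2 (206 ± 7.01) were the highest core genes in the rescue mCherry group. Their libraries overlapped. Ndufs3 followed (142 ± 2.86), then Ndufv1 (119 ± 3.90) and Ndufs8 (115 ± 8.10), which overlapped each other. Ndufs1, which carries several iron-sulfur clusters, was lowest (29.8 ± 4.83). The highest accessory genes in both stages and in the rescue set included Ndufa1, Ndufa2 and Ndufab1, at 620 to 735 TPM in the rescue mCherry libraries and 993 to 1440.4 TPM in the NSN mCherry libraries. Ndufa13 was the lowest accessory subunit of the rescue mCherry group (33.7 and 33.6 TPM).

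**Figure D1:**
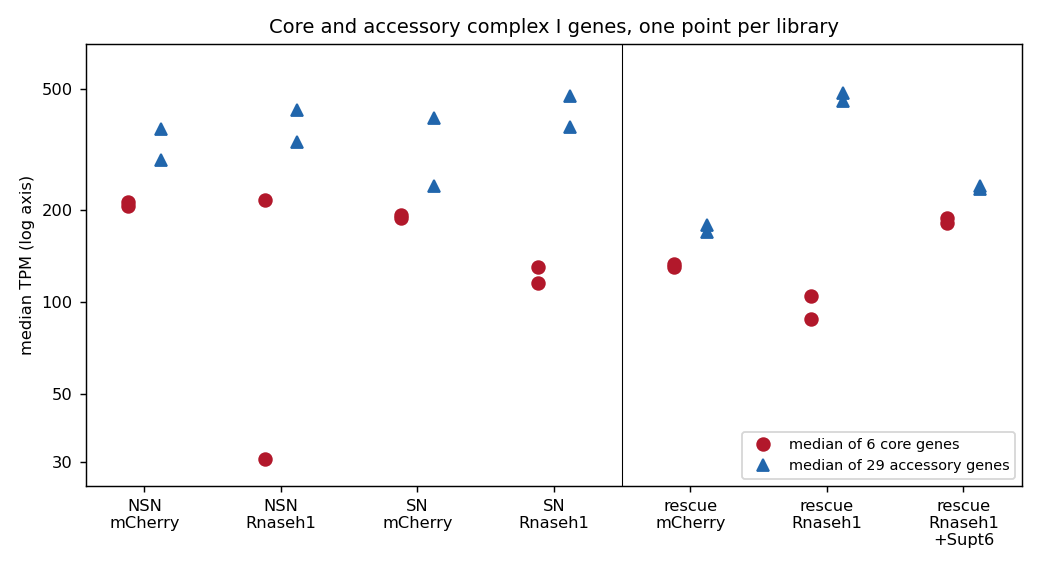
Median TPM (log axis) of the 6 core genes (red circles) and of the 29 accessory subunits (blue triangles), with 1 point per library and 2 libraries per group; the vertical line parts the separately normalized tables. In the rescue set the medians lie at 130.5 and 133 against 179 and 170.2 TPM with mCherry and at 105 and 88.3 against 484 and 454 TPM with Rnaseh1.

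With Rnaseh1 in the rescue set, 30 of the 37 genes rose and 5 fell against mCherry (limma, adjusted p under 0.05 over all genes tested), while 20.3% of all 12859 genes tested rose and 46.2% fell. Of 31 accessory genes, 29 rose and 2 fell. Of these 2, Ndufa4l2 reached 1 TPM only in the mCherry and the Rnaseh1 plus Supt6 libraries. It thus passed the level filter only through groups where it was high. Without Ndufa4 and Ndufa4l2, 28 of 29 rose and 1 fell. Of 6 core genes, 1 rose and 3 fell, which is near the shares over all genes. The median log2 fold change was 1.17 for accessory genes and -0.69 for core genes, beside -0.52 for all genes tested. Each change is given as log2 of TPM + 1 with limma's standard error (SE). The ratio of the median accessory to the median core gene was 4.62 and 5.14 in the Rnaseh1 libraries. The summed level of the 37 genes was 8092 and 7487 TPM with mCherry and 22490.0 and 19735 TPM with Rnaseh1. None of the 37 genes had overlapping libraries between these groups, with 30 higher and 7 lower in both Rnaseh1 libraries; over all genes, 26.4% were higher and 54.8% lower without overlap. The 12 oocyte markers moved between the same groups: 9 fell, among them the zona pellucida genes Zp1 (-3.42) and Zp3 (-2.42) and the growth factor Gdf9 (-2.42), and the maternal factor Dppa3 rose (1.88). Their summed level was 20427.5 to 21492 TPM with mCherry and 18701 to 18924 TPM with Rnaseh1, and their part in the complex I values was not tested.

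Of the core N module, which oxidises NADH, Ndufv1 and Ndufv2 fell. Ndufv1, which binds NADH and the flavin, was at 116 and 122 TPM with mCherry and at 16.9 and 12.2 TPM with Rnaseh1. Its log2 fold change was -2.97 (SE 0.16, adjusted p = 5.2e-06), the lowest of the 37. Ndufv1 was above Ndufs1 in both mCherry libraries and was the lowest core gene in both Rnaseh1 libraries. Its partner Ndufv2 was at 201 and 211 TPM with mCherry and at 115 and 89.0 TPM with Rnaseh1, giving -1.02 (SE 0.13, adjusted p = 0.00031). Ndufs1 was at 33.2 and 26.4 TPM against 20.5 and 25.3 TPM and did not pass the test (-0.36, SE 0.19, adjusted p = 0.13). The fall of Ndufv1 and of Ndufv2 passed in every alternative run, with log2 values of -3.05 to -1.88 and -1.90 to -0.43.

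Of the core Q module, which hands electrons to ubiquinone, Ndufs7 fell, Ndufs3 rose and Ndufs8 did not pass. Ndufs7, which carries the last iron-sulfur cluster, was at 213 and 208 TPM with mCherry and at 100.4 and 87.6 TPM with Rnaseh1 (log2 fold change -1.16, SE 0.10, adjusted p = 4.2e-05). Both Rnaseh1 libraries were below both mCherry libraries. Ndufs3, an early assembly subunit, was at 139.8 and 144 TPM against 195 and 194 TPM (0.45, SE 0.08, adjusted p = 0.0018). Ndufs8, another iron-sulfur subunit, was at 121 and 109.7 TPM against 109 and 105 TPM (-0.11, SE 0.10, adjusted p = 0.35). These calls depended on the processing: with the trend of fold change on transcript GC content removed, Ndufs7 was at 0.02 and no longer passed, and Ndufs8 was at 0.91 and passed. With each library centred on its median, Ndufs8 was at 0.48 and passed.

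All 9 accessory genes of the peripheral arm rose, with a median log2 fold change of 1.76. The largest rise of the 37 was that of Ndufa12, a subunit that joins the peripheral arm late in assembly. Ndufa12 was at 93.8 and 85.3 TPM with mCherry and at 1010.3 and 953 TPM with Rnaseh1 (3.44, SE 0.10, adjusted p = 7.1e-07). Ndufa5, a Q module subunit, was at 129.7 and 136 TPM against 1066 and 773 TPM (2.76, SE 0.14, adjusted p = 4.9e-06). Both passed from a level under that of Ndufv2 to well above it. Ndufv3, of the N module, was at 97.3 and 84.1 TPM against 393 and 371 TPM (2.07, SE 0.10, adjusted p = 3.6e-06). Ndufa2, which has a thioredoxin-like fold, was at 681 and 641 TPM against 2529 and 2128 TPM (1.81, SE 0.11, adjusted p = 8e-06). Ndufa6, which anchors the acyl carrier protein, was at 209.8 and 191 TPM against 723 and 637 TPM (1.76, SE 0.10, adjusted p = 6.6e-06). In each of these 5 genes the lower Rnaseh1 library was above the higher mCherry library. The smallest rise in this arm was that of Ndufa9, near the ubiquinone site, at 182 and 170.2 TPM against 232 and 229.6 TPM (0.39, SE 0.08, adjusted p = 0.0052). Ndufs6, which binds zinc, Ndufa7 and Ndufs4 rose by 1.38, 1.17 and 0.47. Ndufs4 turned to lower and passed with the GC trend removed (-0.33) and with GC and length trends removed (-0.36).

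Of the 19 accessory genes of the membrane arm, 18 rose and 1 fell, with a median of 1.13. Ndufc1, a small membrane subunit, was at 95.9 and 70.3 TPM with mCherry and at 552 and 586 TPM with Rnaseh1 (2.78, SE 0.15, adjusted p = 5.6e-06). Ndufa1, an X-linked subunit needed for assembly of the membrane arm, was at 701 and 635 TPM against 4737 and 4005 TPM (2.7, SE 0.12, adjusted p = 2.3e-06). Ndufa1 thereby became the most abundant of the 37 transcripts in both Rnaseh1 libraries. The exception was Ndufa10, a large subunit with a nucleoside kinase-like fold, at 169.9 and 166 TPM against 48.2 and 54.5 TPM (-1.69, SE 0.10, adjusted p = 7.2e-06). The smallest rises were those of Ndufb7 (146 and 139 against 195 and 176 TPM, 0.38, adjusted p = 0.017) and Ndufb8 (326 and 311 against 435 and 396 TPM, 0.38, adjusted p = 0.0059). The remaining 14 rose by 0.41 (Ndufb11) to 1.76 (Ndufb2). Ndufs5 and Ndufa8, which lie on the intermembrane side, rose by 1.13 and 1.01. Ndufb3 rose by 1.39, but over 11 alternative runs with all libraries it ran from 0.01 to 1.97 and passed in 10.

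Ndufab1, the mitochondrial acyl carrier protein found in both arms, was at 735 and 619.9 TPM with mCherry and at 882 and 811 TPM with Rnaseh1 (0.32, SE 0.10, adjusted p = 0.02). This small rise turned to -0.26 with the GC trend removed and to -0.13 after quantile normalization. Without mCherry replicate 2, the rises of Ndufab1 (0.20), Ndufb7 (0.34), Ndufb10 (0.43), Ndufc2 (0.37) and Ndufs4 (0.36) no longer passed. Without Rnaseh1 replicate 1, those of Ndufab1 (0.26) and Ndufb7 (0.31) did not. Ndufa4 was at 418 and 372 TPM against 1489 and 1365 TPM (1.85, SE 0.10, adjusted p = 6.5e-06). Over 11 alternative runs with all libraries, Ndufa4 ran from 0.10 to 2.44 and passed in 10. Its paralog Ndufa4l2 was near the detection level, at 2.45 and 3.12 TPM against 0.56 and a listed 0 (-1.59, SE 0.30, adjusted p = 0.0028). The gene just outside the rule, Ndufb1-ps, was at 465 and 403 TPM against 1688 and 1622 TPM.

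**Figure D2:**
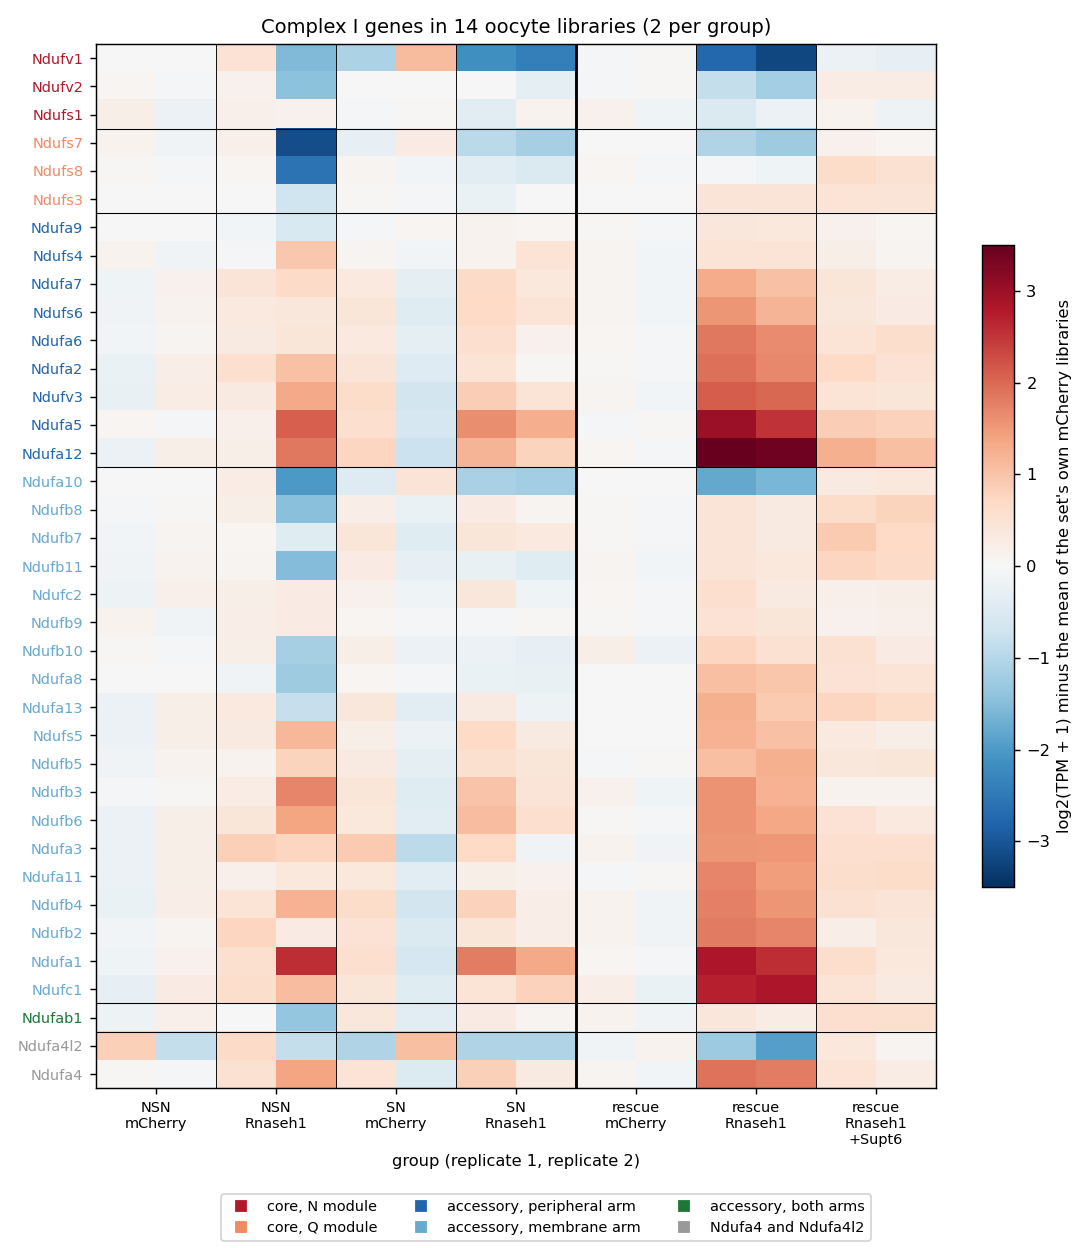
Colour gives log2(TPM + 1) of each gene (rows, coloured by role) in each of 14 libraries (columns, 2 per group). From each value the mean of the mCherry libraries of the same stage, or of the rescue set, was subtracted. The scale runs from -3.5 to 3.5, and the colours do not show differences between NSN and SN in mCherry. In the rescue Rnaseh1 columns most accessory rows are red and Ndufv1, Ndufv2, Ndufs7 and Ndufa10 are blue, while the Rnaseh1 plus Supt6 columns are pale; NSN Rnaseh1 replicate 2 differs from replicate 1.

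Median centring and quantile normalization moved the median of all genes by 0.59 and 0.57, and the split of calls over all genes from 2608 higher and 5945 lower to 4297 and 3894, and to 4223 and 3958. Among the 37 genes the counts were 31 higher and 5 lower, and 27 and 5, so the rise of most accessory genes passed under both.

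Transcript length differed between the genes that rose and fell. The median transcript had 1179 nucleotides (nt) for core genes, 704 nt for accessory genes and 2329 nt for all genes tested, and GC content was 55.0%, 52.1% and 49.3%. A gene's length and GC content are medians over its annotated transcripts, and the forms present in oocytes were not determined. The 30 genes that rose had a median of 674.5 nt and the 5 that fell 1312 nt. Across the 37 genes, which share the same libraries, the log2 fold change ran against length with Pearson's r of -0.51 and Spearman's rho of -0.60, a description over genes that are not independent replicates. Of other protein-coding genes under 600 nt, 193 in all, 53.4% rose with a median of 0.92, and all 12 complex I genes of that length rose with a median of 1.56. From 600 to 1000 nt, 37.1% of 819 other genes rose, and 11 of 14 complex I genes did. From 1000 to 2000 nt, 19.7% of 2920 other genes rose, and 5 of 7 complex I genes did. With trends on GC content and length removed together, an alternative chosen after seeing the data, 28 of the 35 genes were still called in the same direction, 4 no longer passed and 3 changed sign. The last were Ndufb5 (-0.09), which did not pass, and Ndufc2 (-0.73) and Ndufs4 (-0.36), which passed as lower. All calls under that setting, those not made before included, were 22 accessory genes higher and 4 lower, and 2 core genes higher and 4 lower. Of all 12603 genes tested under it, 1741 were higher and 5856 lower. Ndufa12 was then at 2.95, Ndufc1 at 1.75 and Ndufv1 at -1.88. Core and accessory genes differ in length, and its part in the contrast between them was not tested beyond that.

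**Figure D3:**
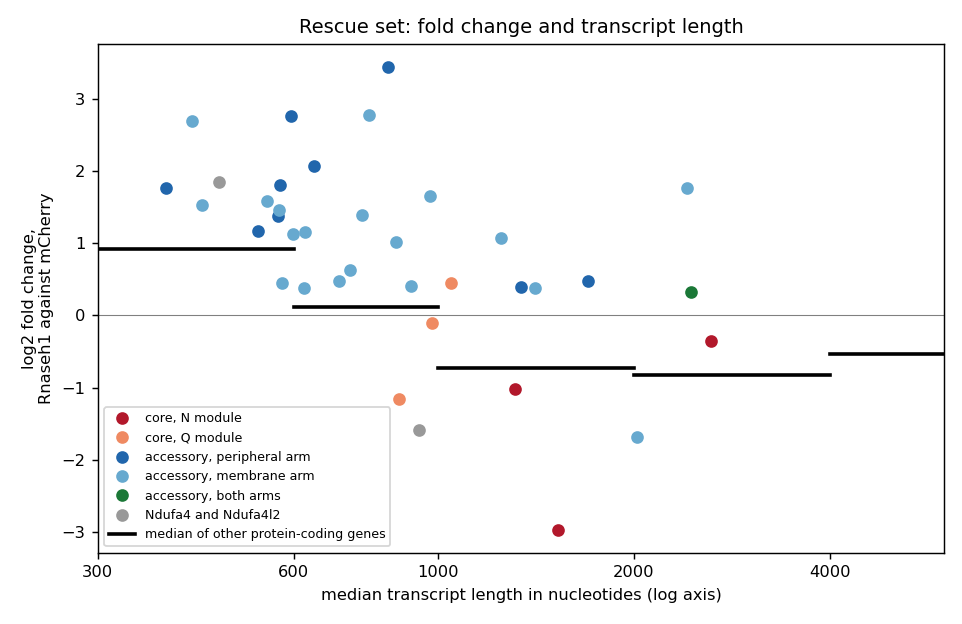
Log2 fold change of Rnaseh1 against mCherry in the rescue set (log2(TPM + 1) scale) against median transcript length in nucleotides (log axis), 1 point per complex I gene coloured by role. Black lines give the median of other protein-coding genes in each length class, 0.92 under 600 nt and -0.73 from 1000 to 2000 nt; the core genes lie at 870.5 nt or more.

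When Supt6 was overexpressed with Rnaseh1, 19 of the 37 genes rose and 0 fell against the same mCherry libraries (limma). Of all genes tested, 5.71% rose and 7.6% fell. An unadjusted p under 0.05 was found for 27 of the 37 and for 3612 of all 12859 genes. The median was 0.41 for the 37 genes, 0.18 for core and 0.43 for accessory genes, beside -0.04 for all genes. The ratio of the median accessory to the median core gene was 1.27 and 1.3 in these libraries. Ndufa12 was at 215 and 187 TPM, still above the mCherry libraries (1.16, SE 0.10, adjusted p = 0.0027). Ndufb11, of the distal membrane arm, was at 593 and 564 TPM against 373 and 333 TPM with mCherry (0.71, SE 0.09, adjusted p = 0.0055). Ndufb8 was at 498 and 543 TPM (0.71, SE 0.08, adjusted p = 0.0055). For Ndufb8 and Ndufb11 these were the highest libraries of the rescue set.

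Among core genes, Ndufs3 (196 and 194 TPM, 0.46, adjusted p = 0.014) and Ndufs8 (181 and 168 TPM, 0.59, adjusted p = 0.013) rose against mCherry. Ndufv1 was at 102 and 98.2 TPM (-0.25, adjusted p = 0.37), Ndufv2 at 245 and 246 TPM (0.26, adjusted p = 0.24), Ndufs7 at 232 and 221 TPM (0.10, adjusted p = 0.56) and Ndufs1 at 32.4 and 25.9 TPM (-0.03, adjusted p = 0.95). The count of 19 rested on every library of both groups: 2 genes rose without Rnaseh1 plus Supt6 replicate 1, 1 without its replicate 2, 6 without mCherry replicate 1 and 2 without mCherry replicate 2. With no level filter 11 rose, beside 412 of all 21033 genes. With the GC and length trends removed 9 rose, beside 334 of all 12603 genes.

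Against Rnaseh1 alone, adding Supt6 went with 9 genes higher and 22 lower of 37, while 41.6% of all genes tested rose and 17.4% fell. Core genes rose in 4 cases and fell in none, and accessory genes fell in 22 cases and rose in 5. Among these 5 was Ndufa4l2, which passed the level filter only through the mCherry and the Rnaseh1 plus Supt6 libraries. Without Ndufa4 and Ndufa4l2, accessory genes fell in 21 cases and rose in 4. The median was 0.98 for core genes, -0.85 for accessory genes and 0.44 for all genes. Of the oocyte markers, 6 were higher and 1 lower in this comparison, Zp1 by 3.32 and Gdf9 by 2.51 and Dppa3 by -1.10. This comparison shares the Rnaseh1 libraries with the first one and the Supt6 libraries with the second, so its values follow from theirs in part. Rnaseh1 itself also differed, at 2270 and 2017 TPM with Supt6 and at 1243 and 625 TPM alone. The part of that difference in these values was not tested.

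Ndufv1 had the largest rise, 2.72 (SE 0.16, adjusted p = 1.1e-05), from 16.9 and 12.2 TPM to 102 and 98.2 TPM. Ndufv2 rose by 1.27 (SE 0.13, adjusted p = 0.00013) and Ndufs7 by 1.26 (SE 0.10, adjusted p = 3.8e-05). Ndufs8 rose by 0.70 (adjusted p = 0.0007), a call that ended at -0.04 with the GC trend removed. Ndufs3 was close between these groups, at 0.01 (adjusted p = 0.94). It turned to lower with median centring, at -0.51, and passed the test there. Ndufs1 was at 0.33 (adjusted p = 0.17).

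Among accessory genes, Ndufa10 rose by 2.03 (SE 0.10, adjusted p = 5.2e-06) to 209.8 and 216 TPM, and Ndufa4l2 by 1.82 (SE 0.30, adjusted p = 0.0018) to 3.83 and 3.02 TPM. Ndufc1 fell by 2.38 (SE 0.15, adjusted p = 1.7e-05) to 115 and 103 TPM. Ndufa12 fell by 2.28 (SE 0.10, adjusted p = 3.7e-06). Ndufa1 fell by 2.21 (SE 0.12, adjusted p = 7.5e-06) to 1023 and 861 TPM. In all 3 genes, the Supt6 libraries lay between the mCherry and the Rnaseh1 libraries. Ndufa5 fell by 1.93 (adjusted p = 3.5e-05) to 240.3 and 234 TPM and Ndufv3 by 1.61 (adjusted p = 1.5e-05) to 126 and 123 TPM. Ndufb7, Ndufb8 and Ndufb11, which had small rises under Rnaseh1, rose by 0.43, 0.32 and 0.30. Their direction depended on the scaling: with median centring they were at -0.08, -0.19 and -0.21 and did not pass, and with the GC trend removed Ndufb7 passed as lower (-0.4, adjusted p = 0.013). Their calls also ended without 1 library, Ndufb7 (0.31) and Ndufb11 (0.27) without Rnaseh1 plus Supt6 replicate 1, Ndufb8 (0.26) and Ndufb11 (0.34) without its replicate 2, and Ndufb11 (0.26) without Rnaseh1 replicate 2. With median centring 5 genes rose and 26 fell, beside 3370 and 3855 of all 12859 genes.

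**Figure D4:**
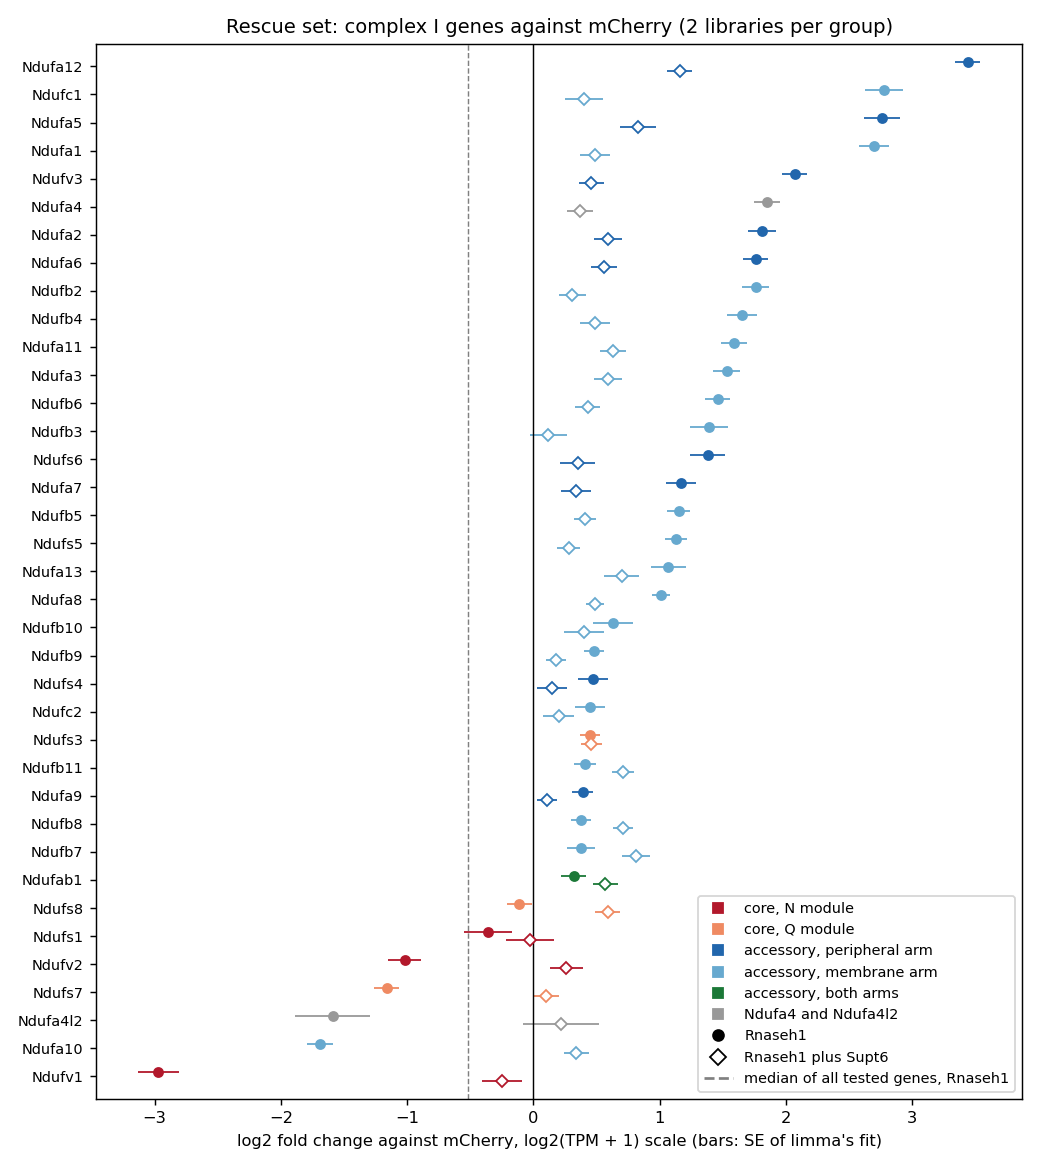
Log2 fold change against mCherry (log2(TPM + 1) scale, bars are limma's SE, 2 libraries per group) for Rnaseh1 (filled circles) and Rnaseh1 plus Supt6 (open diamonds), with 1 row per gene coloured by role; the dashed line is the median of all tested genes with Rnaseh1, -0.52. Rnaseh1 values run from -2.97 (Ndufv1) to 3.44 (Ndufa12), and Rnaseh1 plus Supt6 values from -0.25 (Ndufv1) to 1.16 (Ndufa12).

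In SN oocytes, no gene passed the test with Rnaseh1 against mCherry (limma, 0 of 12736 genes and 0 of the 37, 0%), and 859 genes, 6.74%, had an unadjusted p under 0.05, 1 of them a complex I gene. That gene was Ndufv1, at 25.9 and 123 TPM with mCherry and at 12.1 and 10.1 TPM with Rnaseh1 (-2.26, SE 0.85, adjusted p = 0.61). Both Rnaseh1 libraries were below both mCherry libraries, which differed widely from each other. Ndufa1 was at 1551 and 687 TPM against 3566 and 2594 TPM (1.56, SE 0.68, adjusted p = 0.61). Ndufa5 was at 528 and 236 TPM against 1093 and 854 TPM (1.45, SE 0.65, adjusted p = 0.61). All 6 core genes had a negative log2 value and 26 of 31 accessory genes a positive one, with medians of -0.31 and 0.33 beside -0.22 for all genes. Of the core genes, Ndufv1, Ndufs7 and Ndufs8 were lower in both Rnaseh1 libraries than in both mCherry libraries. Over the 37 genes, 12 were higher and 5 lower without overlap, beside 18.9% and 31.7% of all genes. The accessory to core ratio was 3.65 and 3.24 with Rnaseh1.

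In NSN oocytes, no gene passed either (limma, 0 of 12736 and 0 of the 37, 0%), and 353 genes, 2.77%, had an unadjusted p under 0.05, none of them in complex I. The genes with the smallest p were Ndufa1, Ndufa4 and Ndufc1. Ndufa1 was at 1158 and 1440.4 TPM with mCherry and at 1923 and 7697 TPM with Rnaseh1 (1.57, SE 0.68, adjusted p = 0.76). Ndufa4 was at 718 and 687 TPM against 1026 and 1829 TPM (0.96, SE 0.46, adjusted p = 0.76). Ndufc1 was at 129 and 191 TPM against 241 and 334 TPM (0.85, SE 0.41, adjusted p = 0.76). In each, both Rnaseh1 libraries were the higher ones. The medians were -0.58 for core and 0.44 for accessory genes beside -0.29 for all genes, and 18 genes were higher and 2 lower without overlap, beside 10.3% and 22.6% of all genes.

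The 2 NSN Rnaseh1 libraries did not resemble each other in these genes. Ndufs7 was at 270.0 TPM in replicate 1 and 27.3 TPM in replicate 2, with 265 and 219 TPM in the mCherry libraries. Ndufs8 was at 218 and 33.4 TPM, against 213 and 200.2 TPM. The accessory to core ratio was 1.96 in replicate 1 and 10.9 in replicate 2. Replicate 2 was below both mCherry libraries in every core gene but Ndufs1, which was at 28.3 and 27.9 TPM with Rnaseh1 and at 29.1 and 21.5 TPM with mCherry. Rnaseh1 itself was higher in replicate 1 (745 TPM) than in replicate 2 (229 TPM). Without replicate 1, 2 of the 37 genes were higher (Ndufa1 at 2.57 and Ndufa5 at 2.08) and 7 lower, among them Ndufs7 at -3.10, Ndufs8 at -2.59 and Ndufv2 at -1.45, beside 0.794% of all genes higher and 8.44% lower; the lone library left in that group was assumed to vary like the others. Without replicate 2, none passed.

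Between stages, no gene passed in the mCherry libraries (limma, 0 of the 37, 0%; 328 of all genes, 2.58%, at an unadjusted p under 0.05). The smallest p belonged to Ndufa13, at 57.8 and 75.8 TPM in NSN and 66.1 and 37.4 TPM in SN (-0.41, SE 0.50, adjusted p = 1), and its libraries overlapped. Ndufb5 (-0.29, SE 0.37) and Ndufb7 (-0.28, SE 0.38) overlapped too. In the Rnaseh1 libraries, no gene passed between stages (0 of the 37, 0%; 584 of all genes, 4.59%, at an unadjusted p under 0.05). Ndufv1 was at 67.7 and 15.5 TPM in NSN and 12.1 and 10.1 TPM in SN (-1.48, SE 0.85, adjusted p = 1). Ndufa2 was at -0.65 (SE 0.42) and Ndufab1 at 0.77 (SE 0.51). Without NSN Rnaseh1 replicate 1, Ndufs8 was higher in SN, at 1.93, a value that rests on 1 NSN Rnaseh1 library.

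The difference between the Rnaseh1 effect in SN and in NSN was tested as an interaction, and it passed for no gene (limma, 0 of the 37, 0%; 288 of all genes, 2.26%, at an unadjusted p under 0.05). The smallest unadjusted p-values belonged to Ndufab1, Ndufb8 and Ndufv1, with SN minus NSN values of 0.86 (SE 0.73), 0.83 (SE 0.76) and -1.75 (SE 1.2, adjusted p = 1). The SE of these values in the NSN and SN set, with a median over all genes of 0.53 for a single contrast, was larger than in the rescue set, where it was 0.23. Values of the rescue set and of the NSN and SN set come from tables normalized apart and were not tested against each other.

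The rest of the respiratory chain was described from lists of genes by function, in the rescue set with Rnaseh1 against mCherry, beside the same 20.3% and 46.2% of all genes. Of 17 complex I assembly factors tested, 5 rose and 5 fell with a median of -0.07. Ndufaf4 (1.46) and Tmem126b (2.42) rose, and Dmac2 (-2.99) and Ecsit (-2.89) fell. Ndufaf2, the assembly factor whose place Ndufa12 takes in the finished complex, rose by 1.28. Of 4 complex II subunits, 1 rose (Sdhb, 0.80) and 2 fell (Sdhc, -2.14, and Sdhd, -1.66). Of 9 complex III subunits, 5 rose, such as Uqcrb (2.65) and Uqcrh (1.91), and 4 fell, among them the catalytic subunit Cyc1 (-2.27) and Uqcrc2 (-1.33). Of 10 complex IV subunits, 6 rose, such as Cox7c (2.83) and Cox6c (1.90), and 2 fell, Cox8a (-1.22) and Cox6a1 (-0.29). Of 16 complex V genes, 10 rose, among them Atp5j2 (2.40), Atp5k (2.24) and the inhibitory factor Atpif1 (2.82), which is not a subunit. Another 4 fell, among them Atp5d (-3.44) and the catalytic-head subunit Atp5a1 (-2.05). The medians were -0.86, 0.55, 0.62 and 0.94 for complexes II, III, IV and V, beside 1.07 for the 37 complex I genes and -0.52 for all genes. Of 13 genes of mitochondrial biogenesis, 1 rose (Ssbp1, which coats mitochondrial DNA, 1.54) and 8 fell, among them the transcription factor Nrf1 (-2.01) and the mitochondrial RNA polymerase Polrmt (-1.97).

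With Supt6 added, against Rnaseh1 alone, complex V had 4 genes higher and 10 lower, and complex IV 3 and 6. Complex III had 4 and 4, complex II 2 and 1, the assembly factors 5 and 4, and the biogenesis genes 6 and 2. Over all genes, 41.6% were higher and 17.4% lower. Against mCherry, the Supt6 libraries had 5 complex V genes higher and 2 lower, and 4 and 0 of complex IV. Complex III had 4 and 0 and complex II 1 and 0, beside 5.71% and 7.6% of all genes. These comparisons share libraries as above.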

How the data were processed

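The deposited values are TPM per gene, made by the authors and normalized to the total of each library, in 1 table for the 8 NSN and SN libraries and 1 for the 6 rescue libraries. The submitters' processing notes list the mm10 build and, with no order or purpose, RSEM 1.3.3, STAR 2.7.0d, DESeq2 and Trim Galore 0.6.7. Depth and strand use are not given in the sources used here. Of the first table's identifiers, 35319 had a symbol and 70 had none. Coordinates, biotypes and the median length and GC content of a gene's transcripts came from GENCODE M21 (GRCm38), and promoters from RefSeq (GRCm38.p6).

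Each table was fitted apart with limma 3.58.1 in R 4.3.3 (lmFit, contrasts.fit, eBayes with a trend) on log2(TPM + 1), with group means only. For each gene, the groups of a table shared 1 estimate of the spread. Benjamini-Hochberg adjustment ran over all genes at or above 1 TPM in at least 2 libraries. Calls had an adjusted p under 0.05, two-sided, and the script was tested on simulated data. The log2(TPM + 1) scale understates the change of low genes.

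One item that met the rule is not reported here. The members, lists and motifs were chosen with earlier results of these data known. Values in every library are given for the 6 core genes, for up to 8 called accessory genes with the largest and up to 5 with the smallest log2 fold change in the rescue set, and for the 3 members with the smallest p or the 5 largest changes per direction in other comparisons. Ndufa11, Ndufab1, Ndufb4 and Ndufs6 each have 1 named pseudogene or copy (Ndufa11b, Ndufab1-ps, Ndufb4c and Ndufs6b), and reads shared with such copies make their values uncertain.

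Alternatives were pseudocounts of 0.1 and 5, no level filter, a filter at 5 TPM, median centring, quantile normalization, removal of the trend on transcript GC content, the replicate number as a block with and without that removal, groups compared alone and leaving out each library. Removal of GC and length trends together, and leaving out NSN Rnaseh1 replicate 2 and SN mCherry replicate 2 together, were added after seeing the data.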

Additional observations from a re-analysis of the deposited data

How the results depend on the processing

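The 30 higher and 5 lower complex I genes with Rnaseh1 in the rescue set were 25 to 30 and 5 to 5 when each library was left out in turn. Counts with Supt6 against mCherry were 1 to 24 higher and 0 lower, and against Rnaseh1 7 to 10 higher and 19 to 23 lower. In the NSN and SN set all these counts were 0, except without NSN Rnaseh1 replicate 1, when that group had 1 library. With Supt6 against mCherry, 11 genes were higher without a level filter, beside 412 of all 21033. With GC and length trends removed, 9 were higher, beside 334 of all 12603. That removal left 8 lower for Rnaseh1 against mCherry, beside 5856 of all 12603. With Supt6 against Rnaseh1, 5 were higher with median centring, beside 3370 of all 12859. Leaving out both libraries that stood apart was an alternative chosen after seeing the data. It left 1 NSN Rnaseh1 library, and Ndufa10 was at -1.28 and Ndufv1 at -2.51 in SN against NSN with Rnaseh1. The same removal turned Ndufb5 to 0.02 and Ndufb7 to 0.15 between stages in mCherry, and Ndufab1 to -0.22 and Ndufb8 to -0.24 in the interaction. Leaving out 1 library at a time, these ran from -0.59 to 0.02 (Ndufb5) and -0.7 to 0.15 (Ndufb7) between stages and from -0.02 to 1.67 in the interaction (Ndufb8). In the rescue set, Ndufs1 ran from -0.19 to 0.13 and Ndufb3 from -0.04 to 0.28 for Supt6 against mCherry, and Ndufs3 from 0 to 0.02 for Supt6 against Rnaseh1. The cause of these shifts was not tested.

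Directions also turned for 14 of the 37 genes in at least 1 comparison of the rescue set. For Rnaseh1 against mCherry, median centring gave Ndufs1 0.22 and Ndufs8 0.48, and quantile normalization gave Ndufs1 0.28, Ndufs8 0.14 and Ndufab1 -0.13. Removal of the GC trend gave Ndufs7 0.02, Ndufs8 0.91, Ndufab1 -0.26 and Ndufs4 -0.33, with or without the replicate block, and removal of GC and length trends gave Ndufs8 0.47, Ndufb5 -0.09, Ndufc2 -0.73 and Ndufs4 -0.36. For Supt6 against mCherry, Ndufs1 was 0.04 with centring and 0.07 with quantiles, Ndufb3 was -0.04 and Ndufs4 -0.03 with the GC trend removed, with or without the block, and with both trends removed Ndufs7 was -0.01, Ndufa9 -0.05, Ndufb3 -0.15, Ndufb9 -0.02, Ndufc2 -0.07 and Ndufs4 -0.07. For Supt6 against Rnaseh1, centring gave Ndufs1 -0.18, Ndufs3 -0.51, Ndufab1 -0.27, Ndufb7 -0.08, Ndufb8 -0.19 and Ndufb11 -0.21, and quantiles gave Ndufs1 -0.20 and Ndufs3 -0.11. Removal of the GC trend, with or without the block, gave Ndufs3 -0.51, Ndufs8 -0.04, Ndufb7 -0.4, Ndufb11 -0.07 and Ndufs4 0.29, and removal of both trends gave Ndufs3 -0.36, Ndufb5 0.23, Ndufc2 0.66 and Ndufs4 0.29.

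The labels' replicate numbers do not say what they pair. The differences between replicates correlated between groups at 0 to 0.04 in the rescue set and at -0.51 to 0.17 otherwise. With the replicate block, 30 and 5 genes were called for Rnaseh1, 22 and 0 for Supt6 against mCherry, 10 and 23 for Supt6 against Rnaseh1, and 0 in the NSN and SN set. TPM keeps no depth, so counting error cannot be given, and 2 libraries per group limit precision.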
